A study of Homo sapiens with 18 samples.

Results

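The genes described are 10 human selenoprotein mRNAs, GPX1, GPX4, TXNRD1, TXNRD2, MSRB1, SELENOK, SELENOS, SELENOT, SELENOH and SELENOW. They were taken by gene symbol from a table of 17017 genes, and all 10 were present. After knockdown of fibrillarin the RNA of these genes did not move as a block. TXNRD1 and SELENOW RNA fell and SELENOS and TXNRD2 RNA rose with both hairpins. SELENOT RNA fell with the hairpin SH3 and SELENOK RNA with SH2. SELENOH RNA rose with SH2 only at the threshold of the test, and most alternative runs lost this call. GPX1, GPX4 and MSRB1 passed no test against the control. The number of ribosome footprints per RNA was called changed by edgeR for none of the 10 genes, while DESeq2's Wald test called SELENOK in SH3.

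A selenoprotein carries selenocysteine, an amino acid like cysteine with selenium in place of sulfur. Its codon is UGA, which elsewhere ends translation. A hairpin in the 3′ untranslated region, the SECIS element, binds SECISBP2, which with the elongation factor EEFSEC and a dedicated tRNA makes the ribosome insert selenocysteine at that UGA. Where this fails the ribosome stops early, and some selenoprotein mRNAs are then open to nonsense-mediated decay, the pathway that removes mRNAs with an early stop. Most selenoproteins with a known activity are oxidoreductases that use selenocysteine in the active site.

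The cells were MDA-MB-231, an established line of triple-negative breast carcinoma, with the targeted gene FBL coding for fibrillarin, the nucleolar enzyme that places 2′-O-methyl groups on ribosomal RNA. The study used 2 hairpins to lower fibrillarin and compared RNA with ribosome occupancy. SC is the scramble control, read so from the labels' protocols, and SH2 and SH3 are cells with a hairpin against the FBL mRNA. The labels name the hairpins knockdown 1 and knockdown 2 elsewhere and do not say which of these is SH2 or SH3.

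All 3 groups were transduced with lentivirus, were kept in puromycin at 1 µg/ml for 96 h and received cycloheximide at 100 µg/ml for 5 min before lysis. SC therefore carries the virus and both drugs as well. Each group has 3 replicates with an RNA library (cytoplasmic input RNA) and a footprint library (fragments protected by ribosomes, from monosomes after RNase I), which gives 18 libraries. Nothing in the labels says that replicates were separate cultures, so p-values measure the spread between these libraries, which may be technical.

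The RNA libraries held 23469830 to 27629488 counts and the footprint libraries 1662705 to 6098648. FBL RNA was left at 1.46% of SC in SH2 and 0.898% in SH3, and FBL footprints at 4.70% and 2.09%. The SH2 replicates were not alike in this respect, with FBL RNA at 1.26, 4.52 and 11.2 CPM. Of the line's markers, VIM (5579 CPM in SC RNA), AXL, CD44 and CAV1 were high, ESR1 and PGR had at most 2 counts in any RNA library and CDH1 at most 11, but EPCAM, listed as low, was present at 5.66 ± 0.670 CPM (SD, n = 3) in SC RNA. The blood and endothelial markers PTPRC and PECAM1 were at or below 3.14 CPM in the RNA of every group.

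Levels are given as CPM, counts scaled by the size of the TMM-scaled library, with RNA and footprint libraries scaled separately. They are relative to all RNA or all footprints of a library, and they are not corrected for gene length, so they order no genes. A change is a log2 difference, and a gene was called where the adjusted p-value of edgeR's quasi-likelihood test, 2-sided, was under 0.05 over all genes tested. In bulk RNA, less RNA in every cell and fewer cells with that RNA cannot be told apart. SH2 and SH3 share the SC libraries as their control, so a chance deviation in SC enters both sets of changes.

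Both hairpins changed much of the transcriptome, which sets the background for every count of selenoprotein genes. In RNA, 61.4% of the 12710 genes tested were called for SH2 against SC (31.1% higher and 30.4% lower) and 53% for SH3 against SC (27.8% higher and 25.2% lower). Of the 10 selenoprotein genes, 6 were called for SH2, with 3 higher and 3 lower, and 5 for SH3, with 2 higher and 3 lower. These shares lie near the background, and the median log2 change of the 10 was -0.03 for SH2 and -0.13 for SH3, against 0.01 and 0.03 over all genes tested. What differs from gene to gene is the direction and the size.

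TXNRD1 and TXNRD2 are the cytosolic and the mitochondrial thioredoxin reductase, which use NADPH to keep thioredoxin reduced. TXNRD1 RNA was 339, 312 and 320.2 CPM in the SC replicates, 84.4, 101 and 91.1 in SH2, and 259, 241 and 253 in SH3. The 3 groups do not overlap, with SH2 lowest, SH3 next and SC highest. Against SC, TXNRD1 RNA fell by 1.81 on the log2 scale in SH2 (edgeR, SE 0.09, adjusted p = 1.39e-08) and by 0.37 in SH3 (edgeR, SE 0.09, adjusted p = 0.00381). In SH2 this left 28.4% of the SC level, the largest fall among the 10 genes.

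TXNRD1 footprints fell in SH2 as well. They were 238, 242 and 208 CPM in SC, against 86.6, 75.1 and 90.3 in SH2 and 202, 214 and 209 in SH3. SH2 lies apart from both other groups, while SC and SH3 overlap. The footprint change was -1.45 in SH2 (edgeR, SE 0.13, adjusted p = 1.12e-06) and -0.14 in SH3 (edgeR, SE 0.13, adjusted p = 0.425).

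TXNRD2 RNA was 20.2, 17.8 and 19.9 CPM in SC, against 29.3, 20.8 and 31.4 in SH2 and 25.2, 24.6 and 26.4 in SH3. All 6 hairpin libraries lie above the 3 SC libraries, although SH2 replicate 2 does so narrowly. The rise was 0.49 in SH2 (edgeR, SE 0.14, adjusted p = 0.00705) and 0.40 in SH3 (edgeR, SE 0.14, adjusted p = 0.0283). Without SH2 replicate 3 the SH2 rise of TXNRD2 was 0.35 with an edgeR adjusted p of 0.0565, and the SH3 call was lost, with edgeR adjusted p-values of 0.0557 to 0.124, when SC replicate 2 or 3 or any SH3 replicate was left out. TXNRD2 footprints were not called with either hairpin. Their means were 22.04 ± 0.532 CPM in SC, against 19.9 ± 3.33 in SH2 and 23.3 ± 2.77 in SH3 (± SD, with n = 3), with log2 changes of -0.14 and 0.07.

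NRF2, a transcription factor of the oxidative stress response, is known to act through the antioxidant response element, and TXNRD1 is a classic target gene. The stretches shown here are the places in the promoters of these genes where the letters TGACNNNGC, a core of that element, were found on either strand, each cut to 30 bases, with the match in capitals. Windows ran from 250 bases before to 50 after a RefSeq start site (GRCh38.p14), and the 10 genes have 15 such windows. The second TXNRD1 stretch holds the match on the opposite strand, and a further TXNRD1 match close to the start site is not printed. The coordinates are chr12:104215670-104215699 (plus strand), chr12:104286920-104286949 (plus strand) and chr3:53891957-53891986 (minus strand), and the matches begin 99, 102 and 117 bases before the start site.
TXNRD1, upstream start site: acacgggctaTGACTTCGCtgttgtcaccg
TXNRD1, downstream start site: gtggatttctGCTTTGTCAttctgactctg
SELENOK: gtcgcagatgTGACGATGCaaaaacgcccg

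The windows of the other 8 genes hold no match to those letters. Of all 35116 promoter windows of the same length in the table, 13.3% hold one, so a match is common. A match is a string of letters and shows no binding, and the lack of one says only that these letters are not in the window.

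Other known NRF2 targets moved in both directions. Of 10 NRF2 target genes taken as a list, 2 were called higher and 4 lower in RNA for SH2 (31.1% and 30.4% of all genes). For SH3, 1 was called higher and 5 lower (27.8% and 25.2% of all genes). SLC7A11, the cystine importer, had RNA log2 changes of -0.54 and -1.55, and NQO1, a quinone reductase, -0.70 and -0.86.

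SELENOW, a small selenoprotein with a thioredoxin-like fold, fell in both measures and with both hairpins. Its RNA was 30.6, 25.9 and 30.02 CPM in SC, against 15.0, 12.9 and 17.9 in SH2 and 12.4, 12.5 and 14.3 in SH3. All 6 hairpin libraries lie below every SC library, and the hairpin groups overlap. The RNA change of SELENOW was -0.92 in SH2 (edgeR, SE 0.13, adjusted p = 4.81e-05) and -1.14 in SH3 (edgeR, SE 0.14, adjusted p = 1.39e-05), which left 53.0% and 45.4% of the SC level.

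SELENOW footprints were few. The counts ran from 15 to 56 per library in SC, between 5 and 17 in SH2 and between 3 and 7 in SH3. As CPM they were 9.09, 6.32 and 4.62 in SC, 1.85, 3.96 and 2.59 in SH2, and 1.76, 2.40 and 2.10 in SH3. The hairpin libraries again all lie below SC, with a footprint change of -1.197 in SH2 (edgeR, SE 0.36, adjusted p = 0.0138) and -1.65 in SH3 (edgeR, SE 0.41, adjusted p = 0.00584). The SH2 call for SELENOW footprints was lost without SC replicate 1 (-0.83, edgeR adjusted p = 0.108), SH2 replicate 1 (-0.99, edgeR adjusted p = 0.0610) or SH2 replicate 3 (-1.11, edgeR adjusted p = 0.0516).

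In footprints 44.2% of the 10345 genes tested were called for SH2 against SC (21% higher and 23.2% lower) and 35.9% for SH3 against SC (16.9% higher and 19% lower). Of the selenoprotein genes 4 were called for SH2, SELENOS higher and TXNRD1, SELENOK and SELENOW lower, and 3 for SH3, SELENOK higher and SELENOT and SELENOW lower. Their median log2 footprint change was 0.02 for SH2 and -0.03 for SH3, against -0.00415 and -0.0140 over all genes. SELENOW was the only 1 of the 10 genes called in the same direction with both hairpins in both RNA and footprints. Over all genes tested, 12% were called lower with both hairpins in footprints and 18.2% in RNA.

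**Figure D1:**
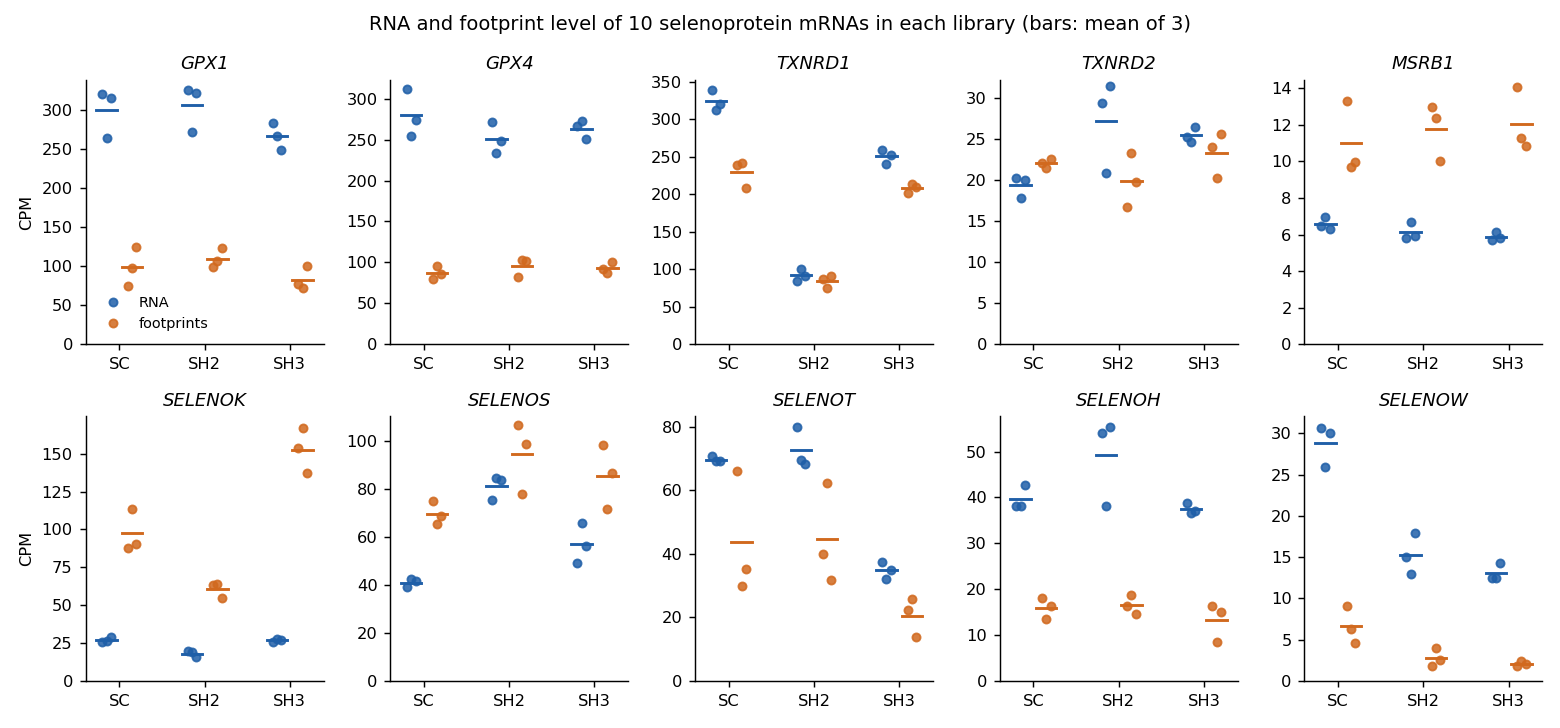
Level in CPM (vertical axes, each from 0, with its own scale) of the 10 selenoprotein genes in SC, SH2 and SH3, where each point is 1 library, blue for RNA and orange for footprints, and each bar is the mean of 3 libraries. TXNRD1 RNA in SH2 (84.4 to 101 CPM) lies far below SC (312 to 339 CPM), and SELENOK footprints in SH3 (137 to 167 CPM) lie above SC while its RNA does not.

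Several of the selenoproteins sit in the membrane of the endoplasmic reticulum (ER). SELENOS belongs to the machinery that moves misfolded proteins out of the ER for degradation, and its gene is known to respond to ER stress. SELENOS RNA was 39.1, 42.5 and 41.5 CPM in SC, against 75.7, 84.7 and 83.9 in SH2 and 49.2, 65.9 and 56.4 in SH3. The 3 groups do not overlap. The rise was 0.99 in SH2 (edgeR, SE 0.11, adjusted p = 4.62e-06), close to a doubling at 198% of SC, and 0.48 in SH3 (edgeR, SE 0.11, adjusted p = 0.00249).

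SELENOS footprints rose in SH2. They were 75.2, 65.3 and 68.7 CPM in SC, against 107, 77.9 and 98.7 in SH2 and 98.3, 71.6 and 86.6 in SH3. All SH2 libraries lie above SC, and SH3 overlaps SC. The footprint change of SELENOS was 0.43 in SH2 (edgeR, SE 0.16, adjusted p = 0.0371) and 0.28 in SH3 (edgeR, SE 0.16, adjusted p = 0.187). The SH2 call was lost without SC replicate 2 (edgeR adjusted p = 0.0726), SC replicate 3 (0.0945), SH2 replicate 1 (0.129) or SH2 replicate 3 (0.0962), and when all footprint libraries were thinned to the smallest total (0.30, edgeR adjusted p = 0.205).

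SELENOK is a small ER membrane selenoprotein that works with the palmitoyl transferase ZDHHC6. SELENOK RNA was 25.7, 26.5 and 28.8 CPM in SC, against 19.7, 19.0 and 15.5 in SH2 and 26.0, 27.4 and 27.0 in SH3. SH2 lies below the other groups, which overlap. The RNA change was -0.58 in SH2 (edgeR, SE 0.11, adjusted p = 0.000527) and -0.01 in SH3 (edgeR, SE 0.11, adjusted p = 0.934).

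SELENOK footprints moved in opposite directions with the hairpins. They were 88.0, 114 and 90.5 CPM in SC, against 63.3, 64.1 and 54.7 in SH2 and 154, 167 and 137 in SH3. No group overlaps another, with SH2 lowest and SH3 highest. The footprint change of SELENOK was -0.67 in SH2 (edgeR, SE 0.15, adjusted p = 0.00185) and 0.66 in SH3 (edgeR, SE 0.15, adjusted p = 0.00256). Among the 10 genes it was the only one called in opposite directions, and both of its footprint calls were kept in every alternative run.

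SELENOT, an ER selenoprotein with a thioredoxin-like fold, fell with SH3. SELENOT RNA was 70.8, 69.0 and 69.0 CPM in SC, against 79.9, 69.5 and 68.2 in SH2 and 37.5, 32.0 and 35.0 in SH3. SC and SH2 overlap, and all SH3 libraries lie below both. The RNA change was -0.998 in SH3 (edgeR, SE 0.10, adjusted p = 3.3e-06), which left 50.0% of the SC level, and 0.06 in SH2 (edgeR, SE 0.10, adjusted p = 0.614).

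SELENOT footprints were uneven between replicates. They were 65.9, 29.9 and 35.2 CPM in SC, against 40.0, 62.2 and 31.7 in SH2 and 22.2, 25.7 and 13.7 in SH3. SC replicate 1 and SH2 replicate 2 stand well above the rest of their groups, and all SH3 libraries lie below both groups. The SH3 footprint change was -1.12 (edgeR, SE 0.32, adjusted p = 0.0124). Without SC replicate 1, the highest, it was -0.67 (edgeR adjusted p = 0.0672), and without SH3 replicate 3 it was -0.87 (edgeR adjusted p = 0.0772, the highest of 12 alternatives, of which 10 kept the call).

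The partners of these ER proteins did not move as a set. Of 8 genes of ER-associated degradation and palmitoylation taken as a list, 7 were tested. In RNA, 4 were called higher and 1 lower for SH2 (31.1% and 30.4% of all genes), and 1 higher and 2 lower for SH3 (27.8% and 25.2%). SYVN1, a ubiquitin ligase of ER-associated degradation, was called higher with both hairpins, at 1.14 (SE 0.14) and 0.74 (SE 0.14). ZDHHC6, the SELENOK partner, was called lower with both, at -0.96 (SE 0.12) and -0.54 (SE 0.12).

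SELENOH is a nuclear and nucleolar selenoprotein, and fibrillarin is a nucleolar protein as well. SELENOH RNA was 38.2, 38.2 and 42.7 CPM in SC, against 54.0, 38.2 and 55.3 in SH2 and 38.8, 36.5 and 37.0 in SH3. SH2 replicates 1 and 3 lie above all other libraries, and SH2 replicate 2 is level with SC. The SH2 change was 0.31 (edgeR, SE 0.13, adjusted p = 0.04996), at the threshold. This SELENOH call was lost in 8 of 11 alternatives, among them with every SC library and SH2 replicates 1 and 3 each left out in turn (edgeR adjusted p of 0.0563 to 0.257) and with DESeq2's Wald test (adjusted p = 0.0616), and the authors' deposited table gives an adjusted p of 0.0673 for the same comparison. SELENOH footprints, at 25 to 112 counts per library, were not called with either hairpin (0.03 and -0.32).

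The glutathione peroxidases GPX1 and GPX4 reduce hydrogen peroxide and lipid peroxides, and GPX4 is known as the guard against ferroptosis, a cell death by lipid peroxidation. Neither was called in any comparison with SC. GPX1 RNA was 321, 264 and 315 CPM in SC, against 326, 272 and 322 in SH2 and 283, 267 and 249 in SH3, and all 3 groups overlap. The GPX1 RNA change was 0.03 in SH2, with a 95% interval of -0.20 to 0.26, and -0.17 in SH3, with an interval of -0.40 to 0.06. GPX1 is known for losing its mRNA to nonsense-mediated decay when selenium is short.

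GPX4 RNA was 312, 254 and 274 CPM in SC, against 272, 234 and 248 in SH2 and 267, 272 and 250.1 in SH3. Its RNA change was -0.16 in SH2 (95% interval -0.37 to 0.06) and -0.09 in SH3 (95% interval -0.30 to 0.12). GPX4 footprints changed by 0.15 (95% interval -0.15 to 0.45) and 0.11 (95% interval -0.20 to 0.41). These intervals hold changes of either sign, and the lowest of the bounds is the -0.37 of RNA in SH2.

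MSRB1, a methionine sulfoxide reductase, repairs oxidised methionine in proteins. It was the least counted of the 10 genes in RNA, with 142 to 177 counts per library. Its RNA means were 6.58 ± 0.344, 6.13 ± 0.460 and 5.88 ± 0.227 CPM in SC, SH2 and SH3 (± SD, with n = 3), and its footprint means 10.98 ± 2.02, 11.8 ± 1.54 and 12.1 ± 1.73 CPM. No MSRB1 change was called, with RNA changes of -0.10 and -0.16 and footprint changes of 0.08 and 0.09.

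**Figure D2:**
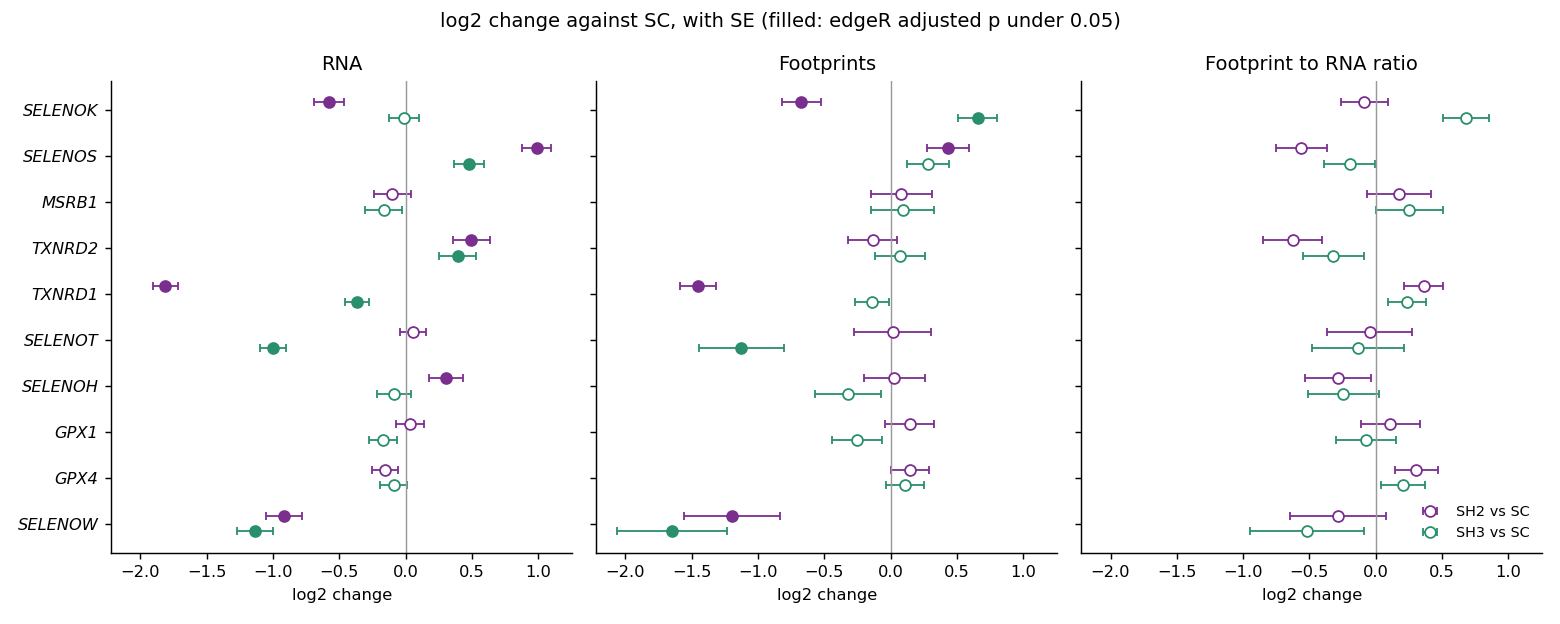
Log2 change against SC (horizontal axes) of RNA, footprints and the footprint to RNA ratio for each of the 10 genes, purple for SH2 and green for SH3, with bars of 1 SE and filled points where the edgeR adjusted p was under 0.05. Filled points stand on both sides of 0 for RNA and footprints, and the ratio panel has none, although the SELENOK point for SH3 stands at 0.68.

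The footprint to RNA ratio, which is called translational efficiency, was tested as the difference between the footprint and the RNA change in a fit of all 18 libraries. Few genes of any kind were called: 3.67% of 12531 for SH2 against SC (1.46% higher and 2.21% lower) and 0.75% for SH3 against SC (0.399% higher and 0.351% lower). None of the 10 selenoprotein genes was called by edgeR with either hairpin, and at an unadjusted p under 0.05 there were 3 for SH2 (SELENOS, TXNRD2 and TXNRD1) and 1 for SH3 (SELENOK), where 17.8% and 12.7% of all genes tested were under that p. DESeq2's Wald test called 0 for SH2 and 1, SELENOK, for SH3, where it called 6.77% and 2.55% of all genes. The median log2 ratio change of the 10 was -0.07 for SH2 and -0.10 for SH3, against -0.00437 and -0.0487 over all genes. The table holds 1 count per gene and library, so footprints before and after the UGA codon cannot be separated and reading through the UGA was not measured.

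Ratios of single replicates divide the footprint library by the RNA library of the same number. The deviations of these pairs from their group means correlated at only -0.352 to 0.374, so the numbers may not mark matching libraries, and such ratios and their SDs depend on that matching. The fitted changes do not use it. Where groups are compared for SELENOK, TXNRD2 and SELENOS, the range over every footprint and RNA library of a group is given as well.

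The largest ratio change was that of SELENOK in SH3. The ratio was 3.42, 4.29 and 3.14 in the SC replicates, 3.22, 3.37 and 3.52 in SH2, and 5.93, 6.11 and 5.07 in SH3. SC and SH2 overlap, and SH3 lies above both. This holds for any matching of libraries, with SELENOK at 5.01 or more in SH3 and at most 4.42 in SC and 4.13 in SH2. The log2 change in SH3 was 0.68 (SE 0.17, 95% interval 0.32 to 1.04) with an edgeR adjusted p of 0.0743, while DESeq2's Wald test gave 0.71 with an adjusted p of 0.00525. Over all alternatives the adjusted p of this SELENOK change ran from 0.00525 to 0.365.

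With all libraries, no other ratio change of the 10 genes against SC was called by edgeR or DESeq2, and the largest of these in SH2 are given next. The TXNRD2 ratio was 1.10, 1.204 and 1.13 in SC, 0.568, 1.12 and 0.628 in SH2, and 0.954, 0.820 and 0.968 in SH3. Over any matching the TXNRD2 ratio was at least 1.07 in SC. It was at most 1.04 in SH3, which lies below SC, and between 0.530 and 1.12 in SH2, which overlaps SC. The TXNRD2 ratio change was -0.63 in SH2 (edgeR, SE 0.22, adjusted p = 0.129) and -0.32 in SH3 (edgeR, SE 0.23, adjusted p = 0.619), and without SH2 replicate 2 the SH2 change was -0.93 with an edgeR adjusted p of 0.0234, against up to 0.431 under the other alternatives.

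The SELENOS ratio was 1.92, 1.54 and 1.66 in SC, 1.41, 0.919 and 1.18 in SH2, and 2.00, 1.09 and 1.54 in SH3. SH2 lies below SC for any matching, with SELENOS at most 1.41 against 1.54 or more, and SH3 spans SC. The SELENOS ratio change in SH2 was -0.56 (edgeR, SE 0.19, adjusted p = 0.105). TXNRD1 had a ratio change of 0.36 in SH2 (SE 0.15, 95% interval 0.06 to 0.67, edgeR adjusted p = 0.187). SELENOW, with the fewest footprints, had ratio changes of -0.28 (SE 0.36) in SH2 and -0.52 (SE 0.43) in SH3.

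TXNRD2 had the largest ratio change averaged over the hairpins, and the genes most like it over the 18 libraries were sought by the smallest root mean square difference of centred log2 CPM. The nearest were CDC25A, a cell cycle phosphatase, at 0.114, DAPK3, a kinase, at 0.118, and PUSL1, a pseudouridine synthase-like protein, at 0.134, against a median of 0.423 over 12521 genes. CDC25A had log2 changes of 0.37 and 0.29 in RNA and of -0.17 and 0.07 in footprints. The likeness is a description of these libraries.

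In the SC cells the ratio itself spread over a wide range among the 10 genes. It was highest for SELENOK, at 3.62 ± 0.599 (SD, n = 3), and then 1.71 ± 0.199 for SELENOS, 1.67 ± 0.340 for MSRB1, 1.14 ± 0.0557 for TXNRD2 and 0.710 ± 0.0631 for TXNRD1. Then came SELENOT at 0.625 ± 0.268, SELENOH at 0.404 ± 0.0643, GPX1 at 0.332 ± 0.0889, GPX4 at 0.313 ± 0.0612 and SELENOW at 0.232 ± 0.0724. Neighbours in this order overlapped in their replicates except at 3 steps, from SELENOK to SELENOS, from MSRB1 to TXNRD2 and from TXNRD2 to TXNRD1, and these 3 gaps hold for any matching of libraries. The median over 11664 genes was 0.838, and SELENOK stood at the 99.3rd percentile and SELENOW at the 6.12th.

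The order can be set beside the place of the UGA in the reading frame. In the thioredoxin reductases, SELENOK, SELENOS and MSRB1 it is known to lie towards the end, and in the glutathione peroxidases, SELENOT, SELENOH and SELENOW nearer the start. The 5 genes with a late UGA took ranks 1 to 5 and the 5 with an early UGA ranks 6 to 10 by mean ratio in SC, and the same was true in SH2 and in SH3, also with mean footprints divided by mean RNA. Single libraries overlapped: in SC the lowest late value was 0.651 (TXNRD1) and the highest early value 0.931 (SELENOT). These values were 0.568 (TXNRD2) and 0.896 (SELENOT) in SH2, and 0.779 (TXNRD1) and 0.803 (SELENOT) in SH3. This grouping was made after the ratios were seen, so it is a description with no test.

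The split was less clean among the 8 further selenoprotein genes that passed the filter on low counts. With a late UGA, SELENOI stood at 2.58 and SELENOO at 1.59 in SC, but TXNRD3 at 0.401. With an early UGA, SELENOM stood at 0.887 and GPX3 at 0.703, both above TXNRD3, and SEPHS2 at 0.307. SELENON and SELENOF, whose UGA lies further from either end, were put in neither group. SELENON, with its UGA in the later part of the frame, stood at 0.214, below all 10 genes and against the order, and SELENOF at 1.21. A ratio compared between genes also depends on which part of each mRNA was counted in each kind of library, which is not stated, and the 10 genes differ in the length of the coding region.

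**Figure D3:**
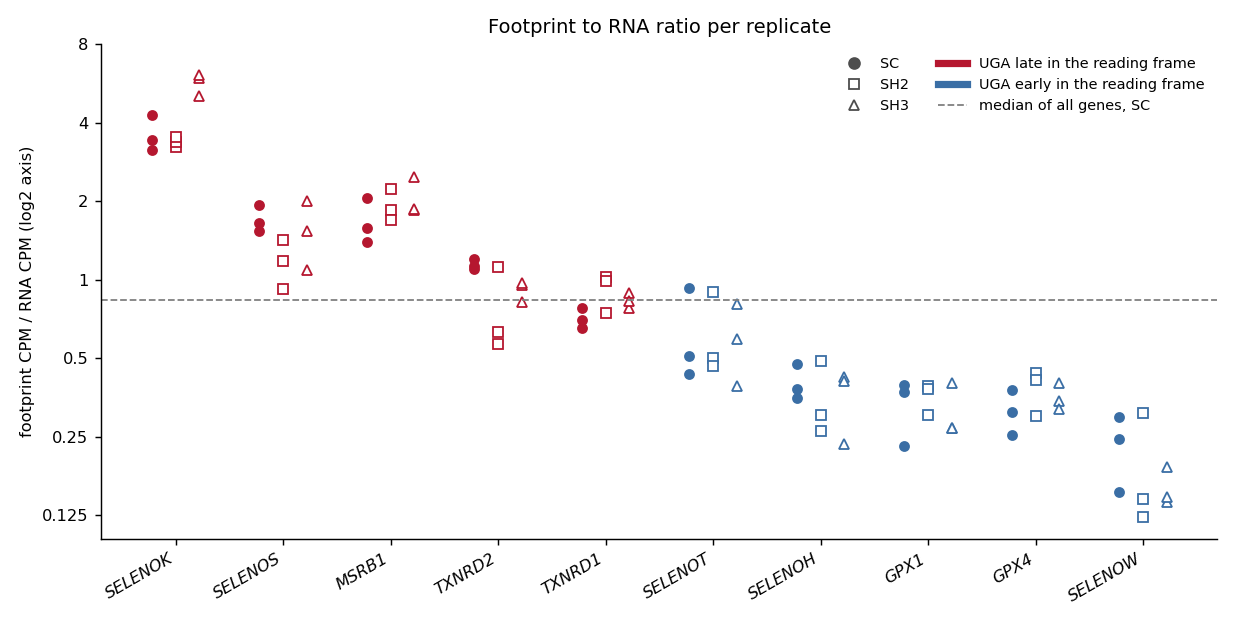
Footprint CPM divided by RNA CPM (vertical axis, log2 scale) for each replicate of the 10 genes, in order of the SC mean, with circles for SC, squares for SH2 and triangles for SH3, red for a UGA late and blue for a UGA early in the reading frame, and the dashed line at the median of all genes in SC (0.838). The 5 red genes hold the higher means in each group. The SELENOT libraries overlap those of TXNRD1 in each group and those of TXNRD2 in SH2.

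The hairpins differed from each other at several of the 10 genes. In RNA 39.3% of all genes tested were called for SH2 against SH3 (18.9% higher and 20.4% lower in SH2), and 5 selenoprotein genes were, SELENOT, SELENOS and SELENOH higher in SH2 and TXNRD1 and SELENOK lower. TXNRD1 had the largest difference, at -1.45 (edgeR, SE 0.09, adjusted p = 1.41e-07), and SELENOT stood at 1.06 (edgeR, SE 0.10, adjusted p = 3.44e-06). Without SH2 replicate 2, 8 genes were called. GPX1, TXNRD2 and SELENOW were added, at edgeR adjusted p-values of 0.0375, 0.0479 and 0.0497. The share of all genes called in that run is not reported here. The SELENOH call was lost without SH2 replicate 1 or 3 or SH3 replicate 2 or 3.

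In footprints 23.8% of all genes tested were called for SH2 against SH3 (12.1% higher and 11.6% lower in SH2), and 3 selenoprotein genes were, SELENOT higher in SH2 and SELENOK and TXNRD1 lower. SELENOK differed by -1.33 (edgeR, SE 0.15, adjusted p = 1.96e-05) and TXNRD1 by -1.31 (edgeR, SE 0.13, adjusted p = 7.97e-06). SELENOT differed by 1.14 (edgeR, SE 0.33, adjusted p = 0.0181), a call that was lost without SH2 replicate 2 (0.81, edgeR adjusted p = 0.111) and, in turn, without SH3 replicate 3 (0.89, edgeR adjusted p = 0.0936). For the ratio, 0.016% of all genes were called by edgeR and none of the 10, with 1, SELENOK, at an unadjusted p under 0.05, as were 11.8% of all genes. SELENOK differed by -0.77 (edgeR, SE 0.18, adjusted p = 0.0971), and DESeq2's Wald test called it (adjusted p = 0.00744) with 1.54% of all genes.

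Summed over the 10 genes, RNA was 1136 ± 73.4 CPM in SC, against 919.8 ± 54.5 in SH2 and 981 ± 25.6 in SH3 (± SD, with n = 3). The SH2 and SH3 sums lie below every SC sum. GPX1, GPX4 and TXNRD1 held 79.5% of the RNA sum in SC, 70.7% in SH2 and 79.5% in SH3, so the sum mostly describes these 3 genes. Summed footprints were 682 ± 14.7 CPM in SC, against 539 ± 12.5 in SH2 and 693 ± 11.99 in SH3. SH2 lies below SC and SH3, which overlap, and the fall of TXNRD1 footprints in SH2 (from 229.7 to 84.0 CPM on average) is as large as the fall of the sum.

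**Figure D4:**
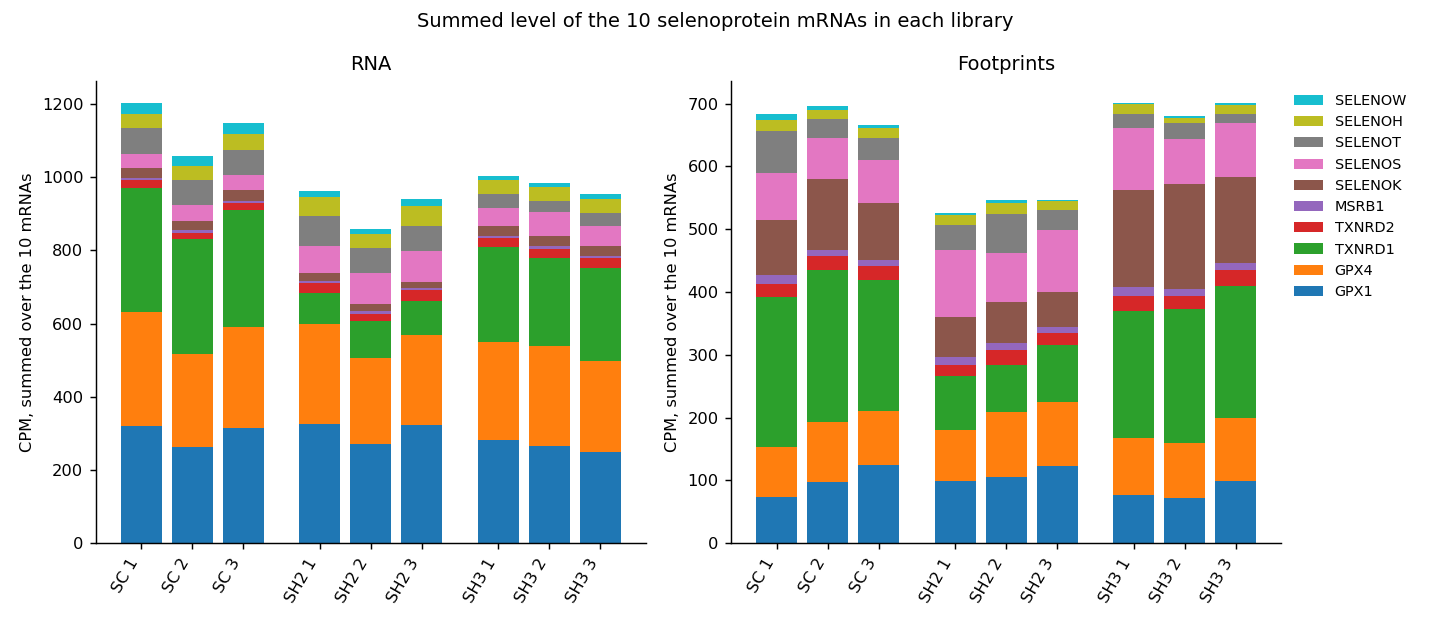
Stacked CPM of the 10 genes in each library (vertical axes from 0), with RNA on the left and footprints on the right and a colour for each gene. The TXNRD1 segment (green) is shorter in all SH2 libraries, and the SELENOK segment (brown) is taller in the SH3 footprint libraries.

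Other selenoprotein genes also moved in both directions. Of 15 taken as a list, 12 were in the table and 8 passed the filter on low counts, while DIO1, DIO2, DIO3 and SELENOP did not. In RNA, 2 were called higher and 2 lower for SH2 (31.1% and 30.4% of all genes), and 0 higher and 1 lower for SH3 (27.8% and 25.2%). SELENOM, a soluble ER selenoprotein, was called higher in footprints with both hairpins, at 1.05 (SE 0.22) and 0.93 (SE 0.22). TXNRD3, a reductase expressed mostly in testis, had RNA changes of -1.51 (edgeR, SE 0.15, adjusted p = 1.79e-06) and -0.36 (edgeR, SE 0.15, adjusted p = 0.0508), beside -1.81 and -0.37 for TXNRD1.

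SELENOO, a mitochondrial pseudokinase that transfers AMP, was called for the ratio in SH2 by edgeR, close to the threshold, as were 3.67% of all genes. No other gene among these 8 and the 10 was called by edgeR for the ratio. Its footprints averaged 54.3 ± 19.4 CPM in SC, against 24.4 ± 7.58 in SH2 and 38.6 ± 16.9 in SH3 (± SD, with n = 3). The SELENOO ratio was 1.35, 2.34 and 1.08 in the SC replicates, 0.418, 0.986 and 0.548 in SH2, and 1.83, 0.923 and 0.853 in SH3. The ratio change was -1.26 in SH2 (edgeR, SE 0.35, adjusted p = 0.0457) and -0.40 in SH3 (edgeR, SE 0.35, adjusted p = 0.696). Ranges over any matching of libraries and alternative runs are not reported here for SELENOO. SELENON, an ER calcium regulator, was called lower in RNA for SH3, at -0.96 (edgeR, SE 0.15, adjusted p = 0.000163).

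A list of 14 genes around selenocysteine, all tested, was built from factors that make or insert it and from further genes. These further genes include the receptor LRP8 and the RNA-binding or ribosomal proteins EIF4A3, NCL, ELAVL1 and RPL30, which are not dedicated to selenocysteine. SEPHS2 was counted with the other selenoproteins. In RNA, 2 were called higher and 5 lower for SH2 (31.1% and 30.4% of all genes), and 4 higher and 6 lower for SH3 (27.8% and 25.2%). In footprints, 0 were called higher and 5 lower for SH2 (21% and 23.2% of all genes), and 2 higher and 5 lower for SH3 (16.9% and 19%). None was called for the ratio. LRP8, a receptor that takes up selenoprotein P, had RNA changes of -0.99 (SE 0.13) and -1.72 (SE 0.13) and footprint changes of -0.95 (SE 0.21) and -2.32 (SE 0.26). TRNAU1AP, which binds the selenocysteine tRNA, had RNA changes of -1.10 (SE 0.10) and -0.61 (SE 0.10) and footprint changes of -1.16 (SE 0.20) and -1.28 (SE 0.21).

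SEPHS1, a relative of the selenophosphate synthetase, had RNA changes of -1.01 (SE 0.11) and -0.40 (SE 0.10), both called. SECISBP2, the SECIS binding protein, rose in SH3, from 48.8 ± 2.30 to 108 ± 6.07 CPM of RNA (SD, n = 3 each; log2 change 1.15, SE 0.10, edgeR adjusted p = 1.24e-06). In SH2 its RNA change was 0.24 (edgeR, SE 0.10, adjusted p = 0.0498), at the threshold.

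The thioredoxin and glutathione partners of these enzymes mostly had lower footprints, with negative changes for 11 of 13 genes with each hairpin. Of the 13 genes, 2 were called higher and 7 lower for SH2 (21% and 23.2% of all genes). For SH3, 2 were called higher and 6 lower (16.9% and 19% of all genes). The median log2 footprint changes were -0.45 and -0.45. TXN, the thioredoxin that TXNRD1 reduces, fell in footprints from a mean of 1059.9 ± 21.9 CPM (SC) to 464 ± 23.3 (SH2) and 399 ± 25.0 (SH3) (± SD, with n = 3), with log2 changes of -1.19 (SE 0.12) and -1.41 (SE 0.12). TXN RNA fell as well, from a mean of 461 ± 38.0 CPM (SC) to 272 ± 18.3 (SH2) and 276 ± 24.0 (SH3). The mean TXN ratio was 2.31, 1.71 and 1.45 in that order. For the ratio, 0 of the 13 genes were called for SH2, and 0 higher and 1 lower for SH3. Over all genes, 0.351% were called lower for the ratio in SH3. PRDX3, the mitochondrial peroxiredoxin of the TXNRD2 system, had RNA changes of -1.80 (SE 0.10) and -0.29 (SE 0.09), and PRDX4, the ER peroxiredoxin, -0.40 (SE 0.11) and -0.44 (SE 0.11). TXNIP, which inhibits thioredoxin, went up, with RNA changes of 0.76 (SE 0.13) and 1.22 (SE 0.13).

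Enzymes with cysteine in place of selenocysteine give a comparison without a UGA to recode. Of 5 such genes 4 were tested. In RNA, 0 were called higher and 3 lower for SH2 (31.1% and 30.4% of all genes), and 1 higher and 3 lower for SH3 (27.8% and 25.2%). For the ratio, 0 of the 4 were called with either hairpin, where 3.67% and 0.75% of all genes were. MSRB3, the relative of MSRB1 with cysteine, had RNA changes of -1.35 (SE 0.12) and -0.53 (SE 0.11), both called. GPX8, an ER relative of GPX4, had RNA changes of -0.62 (SE 0.14) and -0.996 (SE 0.14), both called. Of 10 genes of nonsense-mediated decay, 4 were called higher and 3 lower in RNA for SH2, and 6 higher and 2 lower for SH3, beside the same shares of all genes in RNA. UPF1, its central helicase, was called higher with both, at 0.67 (SE 0.10) and 0.52 (SE 0.10).

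Reads of some of these genes can be shared with others, and how shared reads and strand were treated is not stated. By RefSeq, TXNRD1 overlaps EID3 and SELENOH overlaps the readthrough gene TMX2-CTNND1, and both of these are in the table. GPX1, MSRB1, SELENOK, SELENOT and SELENOW have pseudogenes, none of which is in the table. Values of these genes are uncertain to that extent, and the part of this in any change was not tested.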

How the data were processed

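The 10 genes and the gene lists were chosen with earlier results of these data known. The deposited table gives raw whole-number counts for each gene in each library, made by the authors with Bowtie 1.2.2 and DESeq2 among the tools, per the submitters' processing notes. Counting, strand handling, filters and genome build are not given in the sources used here. Per the file headers, the table also holds DESeq2-normalized signal, log2 fold changes and p-values deposited by the authors. The signal was not used, and a single deposited adjusted p-value is quoted. The deposited ratio columns of SH2 and SH3 were identical in 3 of 3 columns and were not used.

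Counts were tested in edgeR 4.0.16 (R 4.3.3), with filterByExpr, TMM scaling within library kind and the quasi-likelihood test, and adjusted by Benjamini-Hochberg over all genes tested. RNA and footprints were fitted on 9 libraries each and the ratio on 18. SE is the absolute log2 change divided by the square root of F. The ratio per replicate divides footprint CPM by RNA CPM of the same number. DESeq2 1.42.0 was an alternative. Replicates differed beyond counting noise (chi-square per degree of freedom 3.55 to 58.7 in 18 pairs). The scripts were tested on simulated data.

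The 10 genes, FBL and other selenoproteins that passed the filter are named. From each further list, the rule names at most 4 genes per measure called in the same direction with both hairpins, by mean absolute change, and the 3 genes nearest to the member with the largest mean ratio change. Some genes that this rule names are not reported here.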

Additional observations from a re-analysis of the deposited data

Results flagged for a closer look

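The effects of SH2 and SH3 differed at 8 results by the direct test of SH2 against SH3, with edgeR's quasi-likelihood test and adjustment over all genes. In RNA, TXNRD1 stood at -1.45 (SE 0.09, adjusted p = 1.41e-07), SELENOT at 1.06 (SE 0.10, adjusted p = 3.44e-06), SELENOK at -0.57 (SE 0.11, adjusted p = 0.00143), SELENOS at 0.51 (SE 0.11, adjusted p = 0.00239) and SELENOH at 0.39 (SE 0.13, adjusted p = 0.0263). In footprints, TXNRD1 stood at -1.31 (SE 0.13, adjusted p = 7.97e-06), SELENOK at -1.33 (SE 0.15, adjusted p = 1.96e-05) and SELENOT at 1.14 (SE 0.33, adjusted p = 0.0181). A negative value means lower in SH2. The SH2 groups did not overlap the SH3 groups except for SELENOH RNA. SELENOH lost its call in 4 of 11 alternatives and SELENOT footprints in 2. FBL RNA was not called between the hairpins (log2 difference 0.72, SE 0.47, edgeR adjusted p = 0.242), and its part in these differences was not tested.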

How the results depend on the processing

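Of 26 called results of the 10 genes, 18 were called in every alternative, 8 lost the call in some and 0 changed sign. Of 64 not called, 7 became called in some alternative and 24 changed sign in some. With all footprint libraries thinned to the smallest total, 2 genes were called in footprints for SH2 against SC in place of 4, SELENOW no longer passed the filter, and the uncalled SELENOH change was -0.25 in place of 0.03. With DESeq2's Wald test 1 gene, SELENOK, was called for the ratio in SH3 against SC and 1 in SH2 against SH3, against 0 with edgeR. With a replicate in turn left out, the counts of called genes ran in RNA from 4 to 6 for SH2 against SC, 4 to 5 for SH3 against SC and 4 to 8 for SH2 against SH3, and in footprints from 2 to 4, 2 to 3 and 2 to 3. For the ratio they ran from 0 to 1 for SH2 against SC, the 1 being TXNRD2 without SH2 replicate 2, and stayed at 0 for the other 2. The cause of these shifts was not tested. The shares of all genes called in the thinned runs and with a replicate left out are not reported here, so these counts have no background beside them. Leaving out a replicate leaves a group with 2 libraries, and the spread is pooled over groups. Footprint depth limits SELENOW most, at 3 to 7 counts per library in SH3.

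The uncalled changes that crossed 0 with a replicate left out had these lowest and highest log2 values. For RNA in SH2 against SC, GPX1 ran from -0.053 to 0.10 and SELENOT from -0.015 to 0.081, and in SH3 against SC SELENOK ran from -0.063 to 0.036. For RNA in SH2 against SH3, GPX4 ran from -0.13 to 0.011 and TXNRD2 from -0.0054 to 0.29. For footprints in SH2 against SC, GPX1 ran from -0.031 to 0.37, SELENOT from -0.31 to 0.46 and SELENOH from -0.070 to 0.14, and in SH3 against SC TXNRD2 ran from -0.0049 to 0.18. For footprints in SH2 against SH3, GPX4 ran from -0.012 to 0.14 and MSRB1 from -0.086 to 0.091. For the ratio in SH2 against SC, GPX1 ran from -0.11 to 0.29, SELENOK from -0.19 to 0.028, SELENOT from -0.42 to 0.40 and SELENOW from -0.78 to 0.065. For the ratio in SH3 against SC, GPX1 ran from -0.30 to 0.10, SELENOS from -0.37 to 0.060, SELENOT from -0.41 to 0.30 and SELENOH from -0.37 to 0.027. For the ratio in SH2 against SH3, GPX4 ran from -0.032 to 0.25, MSRB1 from -0.18 to 0.027, SELENOT from -0.31 to 0.37, SELENOH from -0.33 to 0.13 and SELENOW from -0.29 to 0.44.

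With the replicate number as a block the counts of called genes were 6, 5 and 5 in RNA, 4, 3 and 4 in footprints and 0, 0 and 0 for the ratio, in the order SH2 against SC, SH3 against SC and SH2 against SH3. The shares of all genes called with the block are not reported here. The block added GPX1 in footprints for SH2 against SH3 (0.41, edgeR adjusted p = 0.0345) and changed no other call. The labels do not say that a number marks a shared culture or day, and the deviations of libraries with the same number correlated at -0.089 to 0.448 in RNA (over 0.1 in 7 of 9 pairs; different numbers -0.356 to 0.157) and at -0.162 to 0.236 in footprints (4 of 9; different numbers -0.258 to 0.252). Not every pair was over 0.1, so the main fits did not pair the samples by number, while the ratios of single replicates did. Between RNA and footprints of a group, the same number gave -0.352 to 0.374 (5 of 9 over 0.1) and different numbers -0.256 to 0.410. In SC, RNA 1 with footprints 2 gave 0.387 and RNA 2 with footprints 1 gave 0.312, against -0.352 and -0.266 for their own numbers. In SH2 these values were 0.410 and 0.358, against -0.228 and -0.224. In SH3 the own numbers gave 0.313, 0.192 and 0.152. A library correlated best with its own number in 14 of 18 looks in RNA, 12 of 18 in footprints and 10 of 18 between the kinds. Group ranges of the ratio over any matching of libraries were added after seeing the data.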
